A study of Mus musculus with 3 samples.

Results

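Arteriolar smooth muscle cells of the mouse retina were examined in 3 droplet single-cell RNA libraries. A barcode was taken as such a cell when at least 3 of the 6 smooth muscle genes Acta2, Tagln, Myh11, Cnn1, Olfr558 and Map3k7cl had a unique molecular identifier (UMI, 1 captured transcript) and at most 2 of the 8 endothelial genes Pecam1, Cldn5, Cdh5, Flt1, Egfl7, Ptprb, Tie1 and Esam had one. The rule was applied to barcodes with 500 to 6000 genes and 1 to 20% mitochondrial UMIs. It found 53 of 1713 young, 60 of 1974 adult and 50 of 1713 old barcodes, 163 of 5400 in all.

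Retinas of C57BL/6JRj mice, an inbred wild-type strain, were dissociated and enriched on magnetic beads for cells that carry CD31, an endothelial surface protein encoded by Pecam1. The young library came from mice aged 3 months, the adult library from mice aged 12 months and the old library from mice aged 23 months. The retinas of 2 mice were pooled in each library, and each age had 1 library, so no comparison between ages has a replicate check and all intervals on ages cover counting error only. The smooth muscle sums rested on 361106 young, 403309 adult and 403045 old UMIs, with a median of 6619, 6221 and 7541 UMIs per cell. Smooth muscle cells held 3.09% of the young barcodes (95% Clopper-Pearson interval 2.33 to 4.03), 3.04% of the adult (2.33 to 3.9) and 2.92% of the old ones (2.17 to 3.83). When no endothelial gene was allowed, the shares were 1.23, 0.912 and 0.409%. These shares depend on how much each enrichment carried over of cells that lack CD31, and Pecam1 itself had 2, 1 and 1 UMIs in young, adult and old smooth muscle cells.

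Smooth muscle cells wrap the arterioles of the retina in a ring-shaped coat, and pericytes cover the capillaries further along. The smooth muscle cell narrows a vessel when calcium enters or leaves its stores, calmodulin activates myosin light chain kinase, and phosphorylated myosin pulls on actin and tropomyosin filaments that are anchored to the cell membrane. Potassium channels and cyclic nucleotides oppose this. Since the retina receives no autonomic nerves, the tone of its vessels is set by pressure, metabolites, the endothelium and neighbouring glia and neurons.

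The genes that chose the cells are given as a description. Acta2, smooth muscle actin, stood at 8718 CPM (UMIs of the gene per 1000000 UMIs of the summed cells) in young, 9387 in adult and 10969 in old smooth muscle cells, and had a UMI in 53, 60 and 49 of them. Tagln, an actin-binding protein of smooth muscle, stood at 6364, 7677 and 8366 CPM, and Myh11, smooth muscle myosin heavy chain, at 3077, 2648 and 2876 CPM. Olfr558, an olfactory receptor family gene known from vascular smooth muscle, stood at 438, 305 and 335 CPM with a UMI in 39, 44 and 40 cells. Map3k7cl stood at 266, 228 and 196 CPM. Cnn1, calponin, was sparse, with a UMI in only 4, 4 and 7 cells.

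Around the limits of the rule the cells thinned out but did not stop. The 9 young, 7 adult and 4 old members with exactly 3 smooth muscle genes held Acta2 at 7131, 3145 and 4809 CPM, and Kcnj8, a pericyte channel gene, at 98.6, 399 and 0 CPM. The 10, 5 and 8 barcodes just outside, with 2 smooth muscle genes, held Acta2 at 1166, 818 and 713 CPM, and Kcnj8 at 700, 526 and 369 CPM. The 7 adult members at this edge thus held Kcnj8 near the level of the adult barcodes outside it. On the endothelial side there was a gap: 4, 3 and 2 barcodes with smooth muscle genes had 3 endothelial genes, whereas 45, 45 and 34 had all 8. Members with 2 endothelial genes held Acta2 at 6702, 9609 and 9767 CPM, and those just outside with 3 held it at 4619, 9045 and 6567 CPM.

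**Figure D1:**
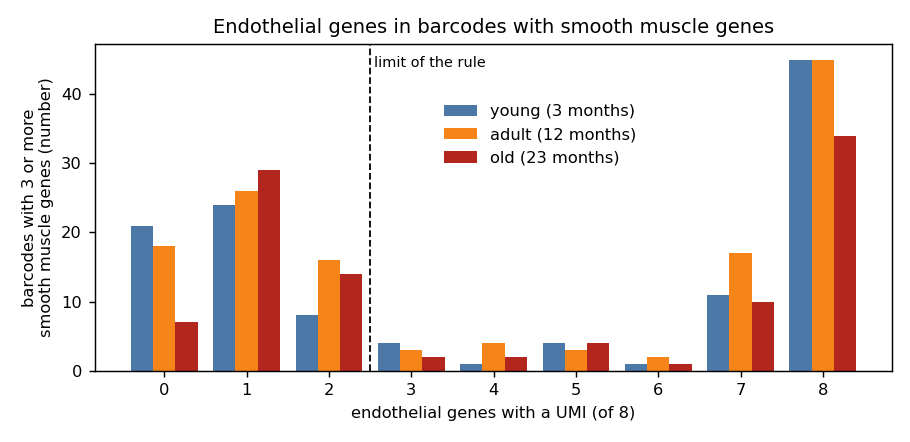
Barcodes with at least 3 smooth muscle genes, counted by how many of 8 endothelial genes had a UMI (horizontal axis); bars are numbers of barcodes in each library, and the dashed line is the limit of the rule. The barcodes fall into a group with 0 to 2 endothelial genes, the members, and a group with 7 or 8, with few between.

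The cells carried smooth muscle genes that the rule did not use. Mylk, myosin light chain kinase, had a UMI in 52 of the 53 young cells, in 56 of the 60 adult cells and in 48 of the 50 old ones. Lmod1, leiomodin, had one in 43, 43 and 41 cells, Des, the intermediate filament desmin, in 40, 46 and 39, Kcnmb1, the smooth muscle subunit of the BK potassium channel, in 29, 37 and 34, and Pln, phospholamban, in 27, 22 and 25. Smtn had a UMI in 21, 28 and 22 cells and Synpo2 in 11, 10 and 13. Actg2, the actin of visceral smooth muscle, had 1 UMI over all 163 cells. These genes fit the label smooth muscle. The place of a cell along the vessel tree was not measured, so that arteriolar is a name for the cells and not a result.

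RNA of genes that mark other cell types was found as follows. The 8 endothelial genes of the rule stood at 1.44, 2.11 and 1.69% of their level in endothelial cells of the same library, a value that the rule itself limits. The 12 endothelial genes listed outside the rule stood at 429, 491 and 516 CPM, or 1.46, 1.54 and 1.60% of their endothelial level. Bsg, which many cell types express, gave 102 of the 155 young, 142 of the 198 adult and 149 of the 208 old UMIs of these 12 genes. The list of 13 rod genes stood at 222, 461 and 223 CPM. Of 8 Müller glia genes the cells held 2, 5 and 10 UMIs, and of 14 immune genes 1, 2 and 2. The list of 12 fibroblast genes held 21, 48 and 27 UMIs, or 58.2, 119 and 67.0 CPM. Nearly all came from the collagen genes Col1a2, with a UMI in 10, 17 and 12 cells, and Col3a1, with one in 4, 11 and 5. The other defining genes Dcn, Lum, Pdgfra and Col1a1 had 0 UMIs, which with 403045 old UMIs allows up to 7.44 CPM each. Barcodes shared between libraries numbered 1 between young and adult, 0 between young and old and 3 between adult and old, and no smooth muscle cell was among them.

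To see what sets smooth muscle cells apart on the vessel wall, they were compared with pericyte-like cells, barcodes with at least 3 of Kcnj8, Abcc9, Higd1b, Vtn and Ndufa4l2, at most 1 smooth muscle gene and at most 2 endothelial genes. There were 102 young, 59 adult and 46 old such cells, with medians of 3764.5, 3668 and 3794.5 UMIs per cell. The summed UMIs of both classes were fitted over the 3 libraries with the library as a block. Of 7171 genes tested, 807 (11.3%) were higher and 590 (8.23%) lower in smooth muscle cells at an edgeR adjusted p under 0.05. DESeq2 called 431 higher and 235 lower. Against the comparison class fixed first, which held Müller glia and bipolar cells besides pericytes, 1569 genes (15.9%) were higher and 1975 (20.1%) lower of 9849, and that class is not used further here. Without the young library, which held the most pericyte-like cells, 510 were higher and 320 lower. Genes of either rule were left out. As the cells of both classes were chosen on other genes of the same libraries, and both sums of a library share its preparation, these tests say how far a difference repeats over the 3 libraries.

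Of the genes outside the rule with at least 100 UMIs, Pln, Nrip2, Fbxl22, Asb2 and Npy1r had the highest ratio of their level in smooth muscle cells to that in the next of pericyte-like, endothelial, rod and Müller cells. All 5 were at or under the floor of 3.84 CPM there, which is 3 counts in the pooled pericyte-like cells, so that their order follows their level in smooth muscle cells alone. Pln, the inhibitor of the calcium pump of the sarcoplasmic reticulum, had 127, 91 and 126 UMIs in young, adult and old smooth muscle cells and 1, 0 and 0 in pericyte-like cells. Its pooled level was 76.7 times this floor. The ratio was 47.7 for Nrip2, 44.4 for Fbxl22, 38.1 for Asb2 and 36.6 for Npy1r. Nrip2, a nuclear receptor interacting protein, had 92, 59 and 63 UMIs and none in pericyte-like cells, so that it was at least 47.7-fold higher. Fbxl22, an F-box protein of the muscle Z-disc, had 45, 79 and 75 UMIs against none. Asb2, a ubiquitin ligase subunit that targets filamins, had 64, 51 and 56 UMIs against 1, 0 and 0. All 5 genes were higher in smooth muscle cells in each of the 3 libraries.

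Several of the largest fitted differences belonged to signalling genes with 0 UMIs in all pericyte-like cells. Ramp1, which turns the calcitonin-like receptor into the receptor for CGRP, a dilator peptide, was at least 33.2-fold higher, with 50, 55 and 44 UMIs. Ptgis, prostacyclin synthase, was at least 33.0-fold higher, with 32, 49 and 67 UMIs. Ntf3, neurotrophin-3, had 15, 17 and 15 UMIs and its receptor gene Ntrk3 had 5, 30 and 46. Smim5 was at least 25.2-fold and Gm37800 at least 27.2-fold higher. Csrp1, a LIM protein of the contractile apparatus, was nearly absent there: it had 163, 232 and 329 UMIs against 0, 1 and 1, a log2 fold change of 7.73 (SE 0.35, edgeR adjusted p = 4.63e-14). Atcayos, Susd5, Thsd4, Xirp1 and Sipa1l2 completed the 15 largest.

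On the other side, 10 genes had the largest fitted differences toward the pericyte-like cells, which does not make each a gene of pericytes. Saa2, an acute phase gene, had 0 UMIs in smooth muscle cells and was at least 21.4-fold lower, and Saa1 stood at 0, 2.48 and 0 CPM against 44.1, 27.3 and 51.2. Dapk2, a death-associated kinase, was at least 25.4-fold lower, Ccl11, the chemokine eotaxin, at least 18.9-fold lower and Dcn, decorin, at least 18.4-fold lower. Dcn was listed above as a fibroblast gene. Of 3 fibroblast genes tested, 0 were higher and 2 lower, and the part of fibroblast RNA in the pericyte-like cells was not tested. Ctla2a, Tgfbi and Tagln3 were also among the 10. Trpm1 and Pcp2, genes of retinal bipolar neurons, reached the list through the adult library alone, where pericyte-like cells held 127 and 645 CPM and 2 barcodes carried at least 3 of 6 bipolar genes. Neither passed with DESeq2.

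**Figure D2:**
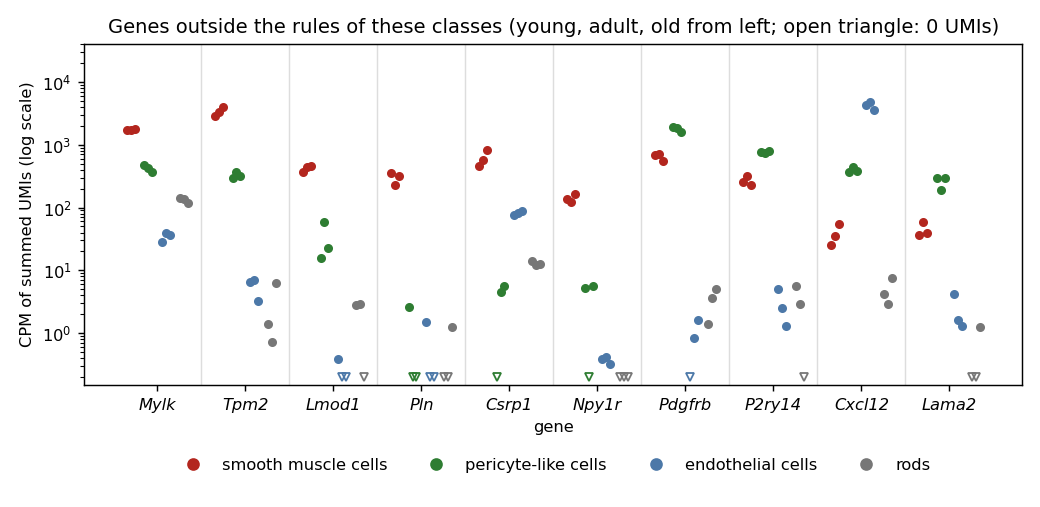
CPM (log scale) of 10 genes outside the rules of the plotted classes in smooth muscle cells, pericyte-like cells, endothelial cells and rods; each class has 3 points, young, adult and old from the left, and open triangles mark 0 UMIs. Mylk, Tpm2, Lmod1, Pln, Csrp1 and Npy1r lie highest in smooth muscle cells in all 3 libraries, Pdgfrb, P2ry14 and Lama2 lie highest in pericyte-like cells, and Cxcl12 lies highest in endothelial cells.

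The promoters of 4 members of this group are shown because they carry a CArG box, the element bound by serum response factor in muscle genes. The sequences are from RefSeq on GRCm38.p6, run 5′ to 3′ on the strand of the gene up to the base before its start in GENCODE M21, from which distances are counted, and have the match in capitals. Fbxl22 lies on the minus strand at chr9:66514594-66514843 with the match beginning 222 bases before the start, Asb2 on the minus strand at chr12:103356002-103356251 with the match at 64 bases, Myl9 on the plus strand at chr2:156775214-156775419 with the match at 117 bases, and Actg1 on the minus strand at chr11:120348543-120348745 with the match at 43 bases.
Fbxl22: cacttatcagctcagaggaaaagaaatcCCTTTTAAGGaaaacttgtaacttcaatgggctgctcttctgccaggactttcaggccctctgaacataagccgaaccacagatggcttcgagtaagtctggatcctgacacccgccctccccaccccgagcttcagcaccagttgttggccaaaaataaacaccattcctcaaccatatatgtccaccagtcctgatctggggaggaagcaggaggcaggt
Asb2: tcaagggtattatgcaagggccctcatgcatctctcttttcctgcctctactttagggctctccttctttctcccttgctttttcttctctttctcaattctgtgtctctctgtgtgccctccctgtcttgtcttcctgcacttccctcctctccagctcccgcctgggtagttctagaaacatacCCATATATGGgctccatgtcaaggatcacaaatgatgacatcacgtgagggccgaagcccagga
Myl9: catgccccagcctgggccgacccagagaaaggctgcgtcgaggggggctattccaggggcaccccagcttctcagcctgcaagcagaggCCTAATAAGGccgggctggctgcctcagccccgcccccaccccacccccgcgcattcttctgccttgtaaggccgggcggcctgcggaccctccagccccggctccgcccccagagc
Actg1: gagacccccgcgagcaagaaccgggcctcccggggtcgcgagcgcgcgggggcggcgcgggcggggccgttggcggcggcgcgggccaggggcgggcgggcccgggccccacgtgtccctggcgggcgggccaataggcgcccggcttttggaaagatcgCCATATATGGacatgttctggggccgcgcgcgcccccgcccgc
A CArG box was found on either strand within 250 bases before the RefSeq start in 439 of 27025 promoters (1.62%), in 93 of 5732 of the tested genes with a promoter in the table (1.62%), in 19 of 617 genes higher in smooth muscle cells (3.08%) and in 6 of 457 genes lower (1.31%). Of the 6 smooth muscle genes of the rule, 3 had an entry and none had a match in this window. A match describes the letters and does not show that the factor binds there.

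The contractile apparatus was higher in smooth muscle cells in most of its measured parts, though both classes expressed it. Of 13 thin filament genes tested, 10 were higher and 0 lower, with a median log2 fold change of 0.93, and of 17 genes of the thick filament and its light chain control 9 were higher and 2 lower, with a median of 1.30. Over all genes tested the median was −0.03. Tpm2, a tropomyosin, stood at 2894, 3330 and 3972 CPM in young, adult and old smooth muscle cells against 296, 368 and 313 CPM in pericyte-like cells, a log2 fold change of 3.51 (SE 0.16, edgeR adjusted p = 3.39e-14). Tpm1 was higher by 2.54 and Lmod1, which nucleates actin filaments, by 3.93 on the log2 scale. Cald1, caldesmon, differed by 0.53 only, at 2755, 3320 and 2851 CPM against 2380, 2195 and 2241 CPM. For each of these 4 genes the smooth muscle value lay above the pericyte-like value in every library.

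Several genes of the light chains and of their control were higher as well. Mylk stood at 1725, 1696 and 1776 CPM against 467, 427 and 370 CPM, a log2 fold change of 2.17 (SE 0.14, edgeR adjusted p = 1.98e-11). Ppp1r12b, a subunit of myosin phosphatase found in muscle, differed by 4.41 (SE 0.28) and its broadly expressed relative Ppp1r12a by 2.27 (SE 0.16). The light chain genes Myl9 and Myl6 were higher by 1.42 and 2.29, and Rock1, the kinase that restrains myosin phosphatase, by 1.30. Myh9, the non-muscle myosin heavy chain, went the other way, at 177, 253 and 184 CPM against 535, 632 and 580 CPM. Myl12a was also lower.

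Genes that tie filaments to the membrane and to each other were among the clearest. Of 27 anchor genes, 17 were higher and 2 lower, with a median log2 fold change of 1.05. Vim, vimentin, stood at 2069, 2284 and 2918 CPM against 143, 305 and 364 CPM, and Flna, filamin A, at 1069, 1302 and 1553 CPM against 260, 195 and 199 CPM. Palld, palladin, stood at 457, 469 and 687 CPM against 2.60, 27.3 and 0 CPM. Synm, synemin, differed by 5.34 (SE 0.42) and Nexn, nexilin, by 4.81 (SE 0.30) on the log2 scale. Ldb3, a Z-disc protein, had 14, 10 and 24 UMIs against 0 in all 3 libraries. Des differed by 0.58 (SE 0.18, edgeR adjusted p = 0.0243) and was higher in only 2 of 3 libraries, since young pericyte-like cells held more of it (335 against 277 CPM). Fhl2, a LIM protein, was lower, at 13.8, 34.7 and 17.4 CPM against 174, 105 and 131 CPM, as was Itga1.

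**Figure D3:**
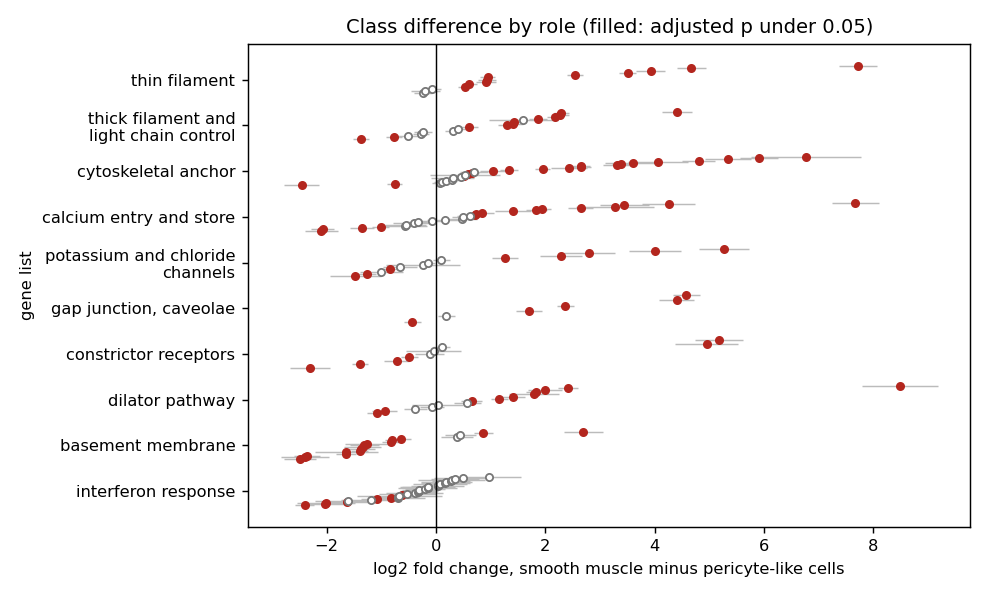
Log2 fold change of smooth muscle minus pericyte-like cells for each tested gene of 10 lists (points; grey bars are 1 SE; filled points have an edgeR adjusted p under 0.05). Filament, anchor and caveolae genes lie mostly to the right of 0, basement membrane genes mostly to the left, and channel and receptor lists spread to both sides.

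Calcium handling genes were more often higher than lower in smooth muscle cells. Of 24 genes, 11 were higher and 4 lower, with a median log2 fold change of 0.55. Over all genes tested the median was −0.03, with 11.3% higher and 8.23% lower. Besides Pln, the pump gene Atp2a2 stood at 872, 749 and 710 CPM against 200, 200 and 296 CPM. Slc8a1, the sodium-calcium exchanger, stood at 111, 84.3 and 67.0 CPM against 7.79, 0 and 5.69 CPM, and Jph2, junctophilin, which couples the store to the membrane, at 74.8, 76.9 and 99.2 CPM against 2.60, 13.6 and 11.4 CPM. These genes were higher in every library. Cacna1c, the pore of the L-type calcium channel that triggers contraction, stood at 74.8, 71.9 and 86.8 CPM against 41.5, 72.7 and 79.6 CPM and did not pass (edgeR adjusted p = 0.292). Casq2, calsequestrin, which buffers calcium in the store, was lower in smooth muscle cells, at 318, 444 and 283 CPM against 763, 773 and 779 CPM, a log2 fold change of −1.01 (SE 0.15). Itpr2, an inositol trisphosphate receptor, was lower by 2.09, and its relative Itpr1 was higher by 0.71.

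The 2 classes carried different potassium channels. Of 13 potassium and chloride channel and transporter genes, 5 were higher and 3 lower. The voltage-gated channel gene Kcna5, whose product limits depolarisation, differed by 4.01 (SE 0.47) on the log2 scale, and Kcnab1, an auxiliary subunit, by 5.27 (SE 0.47). Kcna5 stood at 116, 89.3 and 81.9 CPM against 2.60, 4.54 and 17.1 CPM. Kcnk3, an acid-sensitive leak channel, differed by 2.81 and Kcnmb1 by 1.26. Slc12a2, a chloride cotransporter, was among those lower. The ATP-sensitive channel genes Kcnj8 and Abcc9 had chosen the pericyte-like cells, so their values are a description: Kcnj8 stood at 49.8, 79.3 and 29.8 CPM in smooth muscle and 1567, 1382 and 2082 CPM in pericyte-like cells.

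Caveolae genes stood with the smooth muscle cells and gap junction genes with neither class clearly. Of 6 genes in the list, 4 were higher and 1 lower. Cav1, caveolin-1, stood at 205, 181 and 223 CPM against 10.4, 4.54 and 17.1 CPM, and Cavin3 at 462, 409 and 486 CPM against 18.2, 22.7 and 22.8 CPM. Gjc1, a connexin, was slightly lower, by 0.43 (SE 0.15, edgeR adjusted p = 0.0419), and Gja4, another connexin, stood at 366, 335 and 337 CPM against 418, 236 and 358 CPM without passing.

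Receptors for constricting signals split between the classes. Of 9 tested, 2 were higher and 4 lower in smooth muscle cells. Npy1r, the Y1 receptor for neuropeptide Y, stood at 136, 121 and 164 CPM in smooth muscle cells and 5.19, 0 and 5.69 CPM in pericyte-like cells, a log2 fold change of 5.19 (SE 0.44, edgeR adjusted p = 1.87e-09). Htr1b, a serotonin receptor, stood at 80.3, 76.9 and 86.8 CPM against 5.19, 0 and 0 CPM. P2ry14, the receptor for UDP-glucose, was lower, at 258, 320 and 226 CPM against 771, 750 and 796 CPM, as were Tbxa2r, the thromboxane receptor, S1pr3, a sphingosine phosphate receptor, and Ednrb. Ednra, the endothelin receptor of the vessel wall, stood at 288, 364 and 328 CPM against 356, 273 and 375 CPM and did not pass (edgeR adjusted p = 0.742). The adrenergic receptor genes Adra1a, Adra1b and Adra1d and the angiotensin receptor gene Agtr1a had 0 UMIs in smooth muscle cells of all 3 libraries, which allows up to 8.31 CPM in the young library.

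Of 14 genes tested in the dilator pathway list, 8 were higher and 2 lower. The list also holds phosphodiesterases, which break down cyclic nucleotides, so the count gives no direction for dilation. Beside Ramp1, its partner Calcrl was higher by 1.80 (SE 0.45). Pde3a, a phosphodiesterase that breaks down cyclic nucleotides, stood at 764, 657 and 747 CPM against 112, 141 and 222 CPM, and Pde5a, the target of sildenafil, at 620, 484 and 667 CPM against 319, 295 and 250 CPM. Prkg1, the kinase that cyclic GMP activates, was higher by 0.65 and Adcy5, an adenylyl cyclase, by 1.99. Pth1r and Adora2a, both receptors that raise cyclic AMP, were lower, by 1.07 and 0.94. Gucy1a1 and Gucy1b1, the subunits of the nitric oxide receptor, were among the genes that defined the first comparison class. Gucy1a1 stood at 584, 645 and 528 CPM against 467, 604 and 501 CPM without passing, whereas Gucy1b1 was lower by 0.53.

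Of 27 transcription genes of smooth muscle, 6 were higher and 1 lower, and the median log2 fold change was −0.00. Myocd, myocardin, the coactivator that drives smooth muscle genes through serum response factor, stood at 125, 102 and 131 CPM in smooth muscle cells and 2.60, 9.09 and 0 CPM in pericyte-like cells, a log2 fold change of 4.97 (SE 0.48, edgeR adjusted p = 1.67e-08). Mef2d, Klf2, Klf4, Foxc2 and Nr4a1 were the other 5, of which Klf2, Klf4 and Nr4a1 also belong to the dissociation response list, where 19 of 33 genes were higher. Of 11 Notch pathway genes 4 were higher and 2 lower: Notch3, the receptor that keeps mural cells mature, stood at 728, 657 and 591 CPM against 716, 768 and 842 CPM and did not pass, while its target Heyl was lower by 0.93 and its target Hey2 higher by 0.66. Of 23 TGF-beta and BMP genes 8 were higher, among them Tgfb3, Bmp2 and Id3, and 6 lower, among them Eng and Ltbp4.

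Signals released by the cells differed as well. Of 17 growth and guidance factor genes, 7 were higher and 6 lower. Pdgfa stood at 288, 355 and 320 CPM against 67.5, 59.1 and 68.3 CPM, and Fgf1, an acidic fibroblast growth factor, at 210, 208 and 186 CPM against 15.6, 18.2 and 0 CPM. Cxcl12, a chemokine, was lower, at 24.9, 34.7 and 54.6 CPM against 374, 445 and 375 CPM, and was higher still in endothelial cells, at 4258, 4759 and 3590 CPM. Pdgfrb, the receptor by which mural cells are recruited, was lower in smooth muscle cells, at 687, 724 and 548 CPM against 1884, 1863 and 1570 CPM.

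Most basement membrane genes were lower in smooth muscle cells, and elastic fibre genes were mixed. Of 17 basement membrane genes, 13 were lower and 2 higher, with a median log2 fold change of −1.31. Lama2, a laminin chain, stood at 36.0, 59.5 and 39.7 CPM against 298, 191 and 290 CPM, Nid1, nidogen, at 91.4, 134 and 94.3 CPM against 392, 454 and 256 CPM, and Col4a1, the major collagen of this layer, at 357, 374 and 409 CPM against 877, 854 and 506 CPM. Lama5 and Lamb2 were the 2 that were higher, by 2.70 (SE 0.36) and 0.87 (SE 0.18). Of 9 elastic fibre genes, 4 were higher and 1 lower, with a median of 0.13. Lox, the enzyme that cross-links elastin, had 12, 17 and 13 UMIs against none and was at least 9.37-fold higher, and Eln, elastin, stood at 11.1, 32.2 and 42.2 CPM against 2.60, 0 and 0 CPM. Eln was higher still in endothelial cells, at 63.4, 70.7 and 107 CPM, and the part of endothelial RNA in its values was not tested. Mgp, matrix Gla protein, an inhibitor of calcification, was abundant in smooth muscle cells, at 2830, 3355 and 2821 CPM, but lower than in pericyte-like cells, at 7694, 7931 and 7559 CPM. Timp3 and Thbs1, thrombospondin-1, were higher, by 2.07 and 4.44.

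Interferon response and antigen presentation genes stood lower in smooth muscle cells than in pericyte-like cells where they passed. Of 31 interferon response genes tested, 0 were higher and 7 lower, with a median log2 fold change of −0.31. Ifitm1, an antiviral membrane protein, stood at 77.5, 107 and 96.8 CPM against 607, 504 and 535 CPM, and Ifitm3 at 421, 665 and 630 CPM against 1046, 909 and 1359 CPM. Of 17 antigen presentation genes, 0 were higher and 5 lower, B2m and H2-D1 among them. Among 33 genes of oxidative phosphorylation 17 were higher and 1 lower, with a median of 0.45. Among 33 genes known to respond to tissue dissociation 19 were higher and 2 lower, led by Atf3, at 191, 245 and 404 CPM against 7.79, 9.09 and 11.4 CPM, and Fos, at 3373, 3811 and 4183 CPM against 1817, 1091 and 1598 CPM. The part of dissociation in the class differences was not tested.

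Turning to age, the old library was compared with the young one gene by gene as a ratio of CPM with its exact conditional 95% interval. A gene was counted as different when it had at least 20 UMIs over both libraries, a ratio of at least 1.5 either way and an interval that left out 1. Of 5044 genes with enough UMIs, 251 (4.98%) were higher and 110 (2.18%) lower in old smooth muscle cells, and the median log2 ratio over all of them was 0.10. The adult library had 192 higher (3.86%) and 81 lower (1.63%) than the young one among 4976 genes, and the old had 167 higher (3.14%) and 149 lower (2.8%) than the adult among 5320. The young library thus enters both sets of differences from young. Fewer transcripts of a gene in every cell and fewer cells with it were not told apart in these sums. Since each library was 1 pool of 2 mice, age, the pool and the preparation cannot be told apart.

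Single cells weighed on the sums. The deepest old smooth muscle cell held 24304 UMIs, or 6.03% of the old sum, with 2 endothelial genes and 5 of the 6 smooth muscle genes, and it was the highest cell for 4 of the 9 genes named below as farthest above 1. Without it 239 genes were higher and 104 lower. When each gene was counted without its highest cell in each library, 206 were higher and 101 lower. Thinning every cell to 2000 UMIs left 70 higher and 30 lower. Thinning also cut the sums from 361106 to 104000 young UMIs and from 403045 to 96000 old UMIs. Fewer genes can then reach the minimum UMIs of the rule, so these last counts cannot be compared with those before them. Shares of the genes measured are not given for the counts in this paragraph.

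The summed thin and thick filament genes outside the rule stood 1.17 times as high in old as in young smooth muscle cells (interval 1.14 to 1.20), 1.10 times in pericyte-like cells (1.05 to 1.15) and 1.04 times in endothelial cells (1.03 to 1.06). Of 13 thin filament genes with enough UMIs, 3 were counted higher, Csrp1, Csrp2 and Actg1, and of 17 thick filament genes 0 in either direction. Of all genes measured, 4.98% were counted higher and 2.18% lower. Csrp2, a LIM protein linked to muscle differentiation, stood at 294, 394 and 722 CPM in young, adult and old cells, a ratio of 2.46 (1.96 to 3.1), and at 2.04 (1.60 to 2.61) without its highest cells. Csrp1 stood at 451, 575 and 816 CPM, a ratio of 1.81 (1.49 to 2.20). Actg1, cytoplasmic gamma actin, stood at 562, 672 and 1010 CPM, a ratio of 1.80 (1.51 to 2.14), and its ratio was 1.35 in pericyte-like and 1.09 in endothelial cells. Mylk stood at a ratio of 1.03 (0.924 to 1.15). All 3 LIM and actin genes lay in the same order, young below adult below old.

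Of 25 anchor genes, 5 were higher, Des, Synm, Palld, Nexn and Pdlim1, and 0 lower, with a median log2 ratio of 0.43. Over all genes measured, 4.98% were higher and 2.18% lower, with a median of 0.10. Des stood at 277, 513 and 444 CPM (ratio 1.60, 1.25 to 2.07) and at 335, 282 and 250 CPM in pericyte-like cells, where the ratio was 0.748 (0.518 to 1.06). Synm stood at 116, 176 and 211 CPM (1.81, 1.24 to 2.69). For both genes the adult value was already above the young one. Palld and Nexn, both at a ratio of 1.5, fell under the limit of 1.5 without their highest cells.

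Of 7 constrictor receptor genes and 6 gap junction and caveolae genes with enough UMIs, 0 were counted either way. Npy1r stood at a ratio of 1.21 (0.821 to 1.78), Ednra at 1.14 (0.873 to 1.48) and Cav1 at 1.09 (0.792 to 1.5). These intervals cover counting error only, so they cannot exclude a change of 1.5-fold with age in any of the 3 genes. Of 14 genes of the dilator pathway list, 2 were lower, and they act on cyclic AMP in opposite directions. Pde4d, a phosphodiesterase that breaks down cyclic AMP, stood at 219, 121 and 94.3 CPM, a ratio of 0.431 (0.285 to 0.642), with a UMI in 36 of 53, 31 of 60 and 24 of 50 cells. Adcy6, an adenylyl cyclase, had a ratio of 0.591 (0.363 to 0.95). In pericyte-like cells the Pde4d ratio was 0.843 (0.509 to 1.36). After thinning to 2000 UMIs a Pde4d UMI was found in 19 of 52, 14 of 57 and 6 of 48 cells. Of 20 calcium genes, Trpv2 was higher (1.91, 1.14 to 3.28) and Cacna2d1, a calcium channel subunit, lower (0.654, 0.437 to 0.972), with a ratio of 0.688 (0.451 to 1.04) without its highest cells. Of 13 channel genes, Kcne4 was higher (2.27, 1.17 to 4.71). Over all genes measured, 4.98% were higher and 2.18% lower, so 1 higher gene among 20 is about that share.

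**Figure D4:**
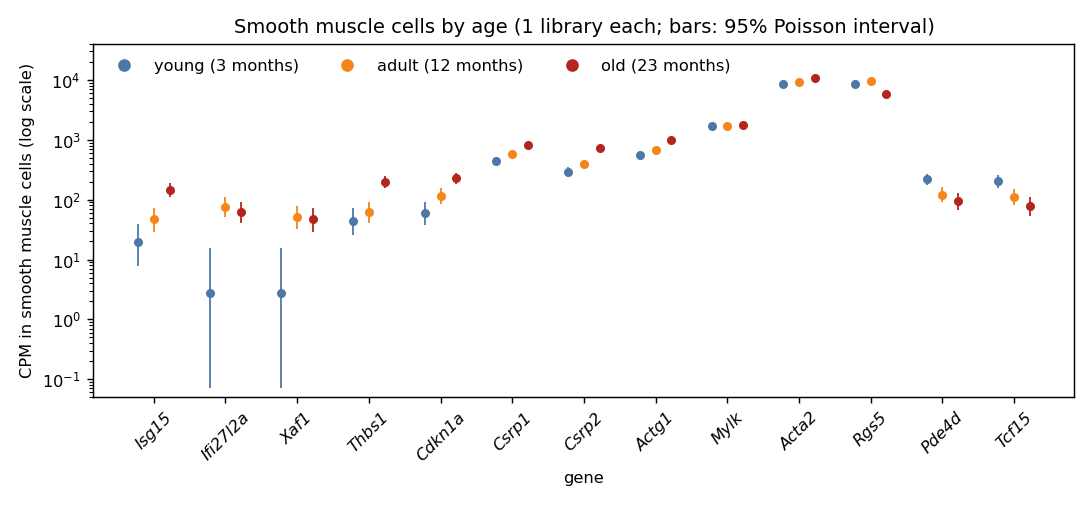
CPM (log scale) of 13 genes in smooth muscle cells of the young, adult and old library (points; bars are 95% Poisson intervals, counting error only). Isg15, Thbs1, Cdkn1a, Csrp1, Csrp2 and Actg1 rise in order from young to old, Mylk lies between 1696 and 1776 CPM, and Pde4d and Tcf15 fall in order.

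Interferon response genes were higher in the adult and old libraries. Their summed UMIs over 52 genes stood at 1440 CPM in young, 2246 in adult and 2526 in old smooth muscle cells, an old to young ratio of 1.75 (interval 1.58 to 1.95). The ratio was 1.11 (1.01 to 1.21) in pericyte-like and 1.66 (1.63 to 1.69) in endothelial cells. Of 15 genes with enough UMIs in smooth muscle cells, 7 were higher and 0 lower, with a median log2 ratio of 0.71 beside 0.10 over all genes measured. Of all genes measured, 4.98% were higher and 2.18% lower. Isg15, a ubiquitin-like protein that interferon induces, stood at 19.4, 47.1 and 146 CPM (7, 19 and 59 UMIs in 7, 13 and 19 cells), a ratio of 7.55 (3.45 to 19.6), and at 6.42 (2.72 to 18.5) without its highest cells. In pericyte-like cells Isg15 had a ratio of 0.843 (0.432 to 1.56) and in endothelial cells 2.05 (1.90 to 2.22). Ifi27l2a, another induced gene, stood at 2.77, 76.9 and 62.0 CPM, from 1, 31 and 25 UMIs, so that its ratio of 22.4 has an interval of 3.67 to 920. Xaf1, a promoter of cell death, stood at 2.77, 52.1 and 47.1 CPM from 1, 21 and 19 UMIs. Without its highest cells Xaf1 had 0 young and 17 old UMIs, under the minimum of 20. For Ifi27l2a and Xaf1 the adult and old values lie together, apart from the young one.

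Parp14, an ADP-ribosyltransferase, stood at 19.4, 34.7 and 64.5 CPM (3.33, 1.41 to 9.08) and Irf1 at 16.6, 29.8 and 44.7 CPM (2.69, 1.02 to 8.27). Ifi27 had a ratio of 1.64 (1.18 to 2.29). Without its highest cells Irf1 had a ratio of 3.36 (1.07 to 13.9) from 4 young and 15 old UMIs, under the minimum of 20. Irf7, a master regulator of the response, had only 3, 3 and 5 UMIs in smooth muscle cells and no change was detectable at this depth. Among the members with no endothelial gene, 21 young, 18 adult and 7 old cells, the median log2 ratio of the list was 0.32. It was 0.68 with the endothelial profile of each library subtracted, scaled either on the 8 genes of the rule or on the 12 outside it. The named age genes, Isg15, Ifi27l2a and Xaf1 among them, were also rerun with these settings. Where a ratio could be formed, it is counted with the other alternatives in the closing section. For other single genes the part of endothelial RNA was not tested.

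Antigen presentation genes, which display peptides on class I molecules, stood at 1119, 1455 and 1714 CPM in sum, a ratio of 1.53 (1.35 to 1.74), against 1.26 (1.11 to 1.42) in pericyte-like and 1.84 (1.80 to 1.88) in endothelial cells. All 14 genes with enough UMIs had a log2 ratio above 0, as did 2967 of the 5044 genes measured, and 5 of the 14 were counted higher, against 4.98% of all measured. The median was 0.68. B2m, the light chain of class I molecules, stood at 102, 161 and 211 CPM (2.06, 1.38 to 3.12), with ratios of 1.78 in pericyte-like and 2.14 in endothelial cells. H2-K1 stood at 116, 112 and 203 CPM (1.75, 1.19 to 2.60), H2-D1 at 138, 186 and 211 CPM (1.52, 1.06 to 2.21) and H2-T23 at 5.54, 37.2 and 47.1 CPM (8.51, 2.05 to 75.4). Without its highest cells H2-T23 had a ratio of 15.2 (2.39 to 637) from 1 young and 17 old UMIs, also under that minimum of 20. Psme1, a proteasome activator, stood at 52.6, 161 and 146 CPM (2.78, 1.64 to 4.94). With the endothelial profile subtracted the list's median was 0.43 when scaled on the 8 genes of the rule and 0.44 when scaled on the 12 outside it.

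**Figure D5:**
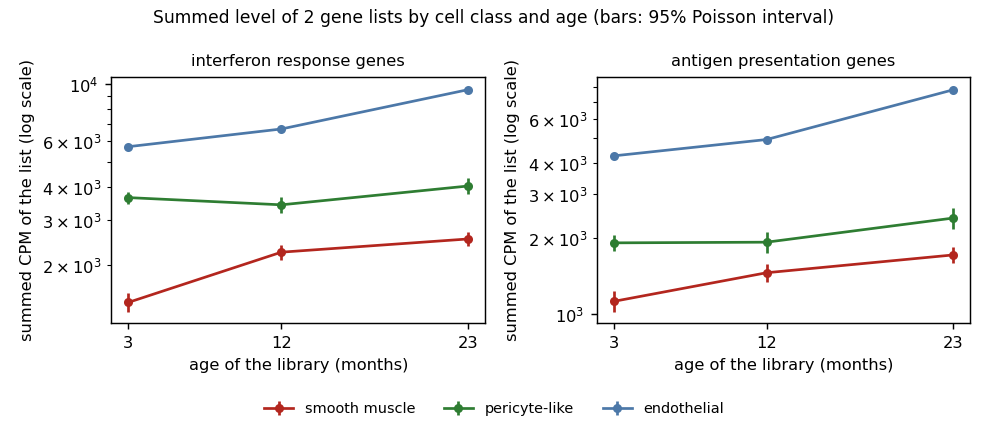
Summed CPM (log scale) of the interferon response list (left) and the antigen presentation list (right) against the age of the library in months, in smooth muscle, pericyte-like and endothelial cells; bars are 95% Poisson intervals. Smooth muscle cells have the lowest level at each age, from 1440 to 2526 CPM for the interferon list, and endothelial cells the highest.

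The promoters of Isg15 and B2m are shown because the interferon-stimulated response element is the known control element of such genes. Isg15 lies on the minus strand at chr4:156200819-156201068 and B2m on the plus strand at chr2:122147437-122147685 (RefSeq, GRCm38.p6, 5′ to 3′ on the strand of the gene). Capitals mark matches to TTTCNNTTTC, which lie on the strand opposite to the gene in both. Isg15 has 3 overlapping matches, beginning 78, 72 and 66 bases before the GENCODE start, and B2m has 1 at 138 bases.
Isg15: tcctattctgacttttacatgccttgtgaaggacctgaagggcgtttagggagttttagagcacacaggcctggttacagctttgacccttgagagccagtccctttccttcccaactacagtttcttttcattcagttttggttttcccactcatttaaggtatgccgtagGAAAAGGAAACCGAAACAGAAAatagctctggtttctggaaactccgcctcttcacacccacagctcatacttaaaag
B2m: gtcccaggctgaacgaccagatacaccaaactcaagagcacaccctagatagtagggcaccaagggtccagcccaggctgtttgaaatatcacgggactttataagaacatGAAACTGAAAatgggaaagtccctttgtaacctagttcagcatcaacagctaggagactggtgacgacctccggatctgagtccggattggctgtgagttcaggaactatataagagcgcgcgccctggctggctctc
This pattern was searched on both strands and was found in 936 of 27025 promoters (3.46%), in 114 of 4025 genes measured for age that had an entry (2.83%) and in 7 of 199 genes higher in old smooth muscle cells (3.52%).

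The genes whose intervals lay farthest above 1 in old smooth muscle cells had varied roles. Beside Isg15, Ifi27l2a and Xaf1 they held Nupr1 and Atf5, both genes of the stress response, Sdc4, a heparan sulphate carrier, Thbs1, Ntrk3 and Gm37800. Atf5 stood at 58.2, 211 and 251 CPM (4.31, 2.67 to 7.26), and its ratio was 4.38 in pericyte-like and 0.819 in endothelial cells. Ntrk3 stood at 13.8, 74.4 and 114 CPM with a UMI in 4, 14 and 25 cells (8.24, 3.29 to 26.6), and Sdc4 at 16.6, 52.1 and 104 CPM (6.27, 2.65 to 18.1). Thbs1, which activates TGF-beta, stood at 44.3, 62.0 and 196 CPM with a UMI in 7, 14 and 20 cells (4.42, 2.56 to 8.11), and at 4.24 (2.18 to 9.0) without its highest cells.

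For Nupr1, 1 cell weighed heavily on the value. It stood at 19.4, 52.1 and 151 CPM (7.81, 3.57 to 20.2), with 40 of 61 old UMIs in 1 cell, and its ratio was 2.86 without the deepest old cell. Gm37800 stood at 38.8, 91.7 and 176 CPM (4.54, 2.54 to 8.73) and at 0.635 among cells with no endothelial gene.

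List members outside this group were higher too. Cdkn1a, the cell cycle inhibitor p21, stood at 60.9, 117 and 231 CPM with a UMI in 17, 25 and 28 cells, a ratio of 3.79 (2.36 to 6.33), and 3.07 (1.82 to 5.41) without its highest cells; in endothelial cells its ratio was 0.911 (0.821 to 1.01). Of 12 senescence genes measured, 2 were counted higher, Cdkn1a among them, and 0 lower, beside 4.98% higher and 2.18% lower of all genes measured. Inhba, an activin subunit, stood at 16.6, 19.8 and 81.9 CPM (4.93, 2.04 to 14.4), Ccn1 at 96.9, 166 and 243 CPM (2.51, 1.69 to 3.80) and Ccn2 at 227, 439 and 417 CPM (1.84, 1.40 to 2.42), the last under the limit at 1.37 without its highest cells. Eln stood at 3.81 (1.24 to 15.6) from 4 young and 17 old UMIs. Without its highest cells it stood at 3.88 (1.07 to 21.2), from 16 UMIs in all where 20 were needed to count. In endothelial cells its ratio was 1.7 (1.4 to 2.06).

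Of 31 genes of the dissociation response measured, 6 were higher, among them Klf2 (2.43, 1.89 to 3.15), Atf3 (2.12, 1.59 to 2.85), Socs3 (2.07, 1.52 to 2.83) and Zfp36 (1.74, 1.43 to 2.12), and 0 lower. Of all genes measured, 4.98% were higher and 2.18% lower. The list's sum had a ratio of 1.15 (1.11 to 1.19) in smooth muscle, 0.833 (0.792 to 0.875) in pericyte-like and 1.03 (1.01 to 1.04) in endothelial cells. Its part in the other differences with age was not tested.

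The lower genes included transcription factors and Malat1, a long non-coding RNA of the nucleus. Malat1 stood at 47147, 50448 and 26910 CPM, or 4.71, 5.04 and 2.69% of all UMIs, with a ratio of 0.571 (0.557 to 0.585) in smooth muscle, 0.722 in pericyte-like and 0.736 in endothelial cells. The mitochondrial share was 8.85, 8.12 and 7.07%. With Malat1 and mitochondrial genes left out of the totals, the ratio of the summed contractile genes was 1.12. Tcf15, a transcription factor of mesoderm, stood at 202, 112 and 79.4 CPM (0.393, 0.251 to 0.603), whereas it was higher in old pericyte-like cells (1.54, 1.11 to 2.13) and lower in old endothelial cells (0.697, 0.594 to 0.817). Cnnm2, a magnesium transport gene, stood at 166, 124 and 67.0 CPM (0.403, 0.246 to 0.645). Zfp945, Gm26802, Tfg, Rabl6 and Rit1 had ratios between 0.211 and 0.326. The direction of Zfp945 turned after thinning to 2000 UMIs, with a ratio of 1.44. Rabl6 stood at 0.128 (0.0141 to 0.557) without its highest cells, from 14 young and 2 old UMIs, under the minimum of 20.

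Of 26 transcription genes of smooth muscle measured, 2 were higher in old cells, Klf2 and Nr4a1, and 2 lower, Heyl and Mef2d. Of all genes measured, 4.98% were higher and 2.18% lower. Klf2 and Nr4a1 also belong to the dissociation response list. Nr4a1, an orphan nuclear receptor, stood at 188, 208 and 285 CPM (1.52, 1.11 to 2.08). Heyl stood at 150, 96.7 and 96.8 CPM (0.647, 0.417 to 0.995), Mef2d at 163, 124 and 96.8 CPM (0.592, 0.385 to 0.903), Id3 at 532, 307 and 330 CPM (0.621, 0.494 to 0.778) and Nrip2 at 255, 146 and 156 CPM (0.614, 0.438 to 0.855). For Heyl, Id3 and Nrip2 the adult and old values lie together below the young one. Myocd had a ratio of 1.06 (0.696 to 1.61) and Notch3 0.811 (0.677 to 0.970), neither counted. Rgs5, a G protein regulator of mural cells, stood at 8554, 9663 and 5838 CPM, a ratio of 0.682 (0.647 to 0.720) that falls just short of the limit, with 0.817 in pericyte-like cells. Oxidative phosphorylation genes, 34 measured, had 0 counted either way and a median log2 ratio of −0.07, and of 12 basement membrane genes 0 were counted.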

How the data were processed

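The authors pooled the retinas of 2 mice per age, enriched CD31-positive cells magnetically and made droplet libraries; per the labels and the submitters' processing notes, reads were processed with Cell Ranger 6.1.2 against mm10. The deposited matrices hold raw UMI counts for each gene and barcode and were not filtered to the study's limits on genes and mitochondrial share, which were applied here. No deposited annotation of cells was used. The members and gene lists were chosen with earlier results of these data known.

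For each class and library the UMIs of its cells were added up and scaled to CPM. With 1 library per age no test was made between ages: ratios carry exact conditional 95% intervals, sums Poisson and shares Clopper-Pearson intervals (scipy 1.17.1), which cover counting error only, since UMIs of 1 cell are not independent of each other. A count of 0 was read against a floor of 3 counts.

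Classes were compared with edgeR 4.0.16 (R 4.3.3), quasi-likelihood test with the library as a block, TMM scaling, at least 30 UMIs over the 6 sums, and Benjamini-Hochberg adjustment; the code was tested on simulated counts. The comparison class fixed at the outset, at least 3 of Pdgfrb, Notch3, Cspg4, Rgs5, Gucy1a1 and Gucy1b1 with at most 1 smooth muscle gene and 2 endothelial genes, turned out to hold Müller glia (34, 45 and 31 of 147, 113 and 85 droplets) and bipolar cells (10, 16 and 10). Against it 1569 genes (15.9%) were higher and 1975 (20.1%) lower of 9849. The pericyte-like class, planned as an alternative, was therefore used in the text. DESeq2 1.42.0 was an alternative. Scrublet in scanpy 1.11.5 marked 37 of 5400 barcodes, 0 smooth muscle cells and 1 of the 193 with both endothelial and smooth muscle genes, a weak call, and doublets were kept.

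Named genes were the 15 highest and 10 lowest by log2 fold change with an adjusted p under 0.05 in 1 direction in each library, the 5 with the highest ratio to any other class, for age the 10 each way whose interval bound nearest 1 lay farthest from it, and members of the lists by role. Some genes that these rules pick are not reported here. The 15 and 10 were ranked in the pericyte-like comparison. Sequences were taken from RefSeq promoters on GRCm38.p6.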

Additional observations from a re-analysis of the deposited data

How the results depend on the processing

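No paired analysis was possible because each age has 1 library and all libraries carry the same replicate number. The library block of the class fit is a pairing of 2 sums from 1 library: without the block, 823 genes were higher and 595 lower against pericyte-like cells and 1520 and 1941 against the first comparison class.

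Against pericyte-like cells, DESeq2 gave 431 higher and 235 lower, and leaving out 1 library in turn 510 to 739 higher and 320 to 545 lower, the lowest without the young library. Against the first comparison class, higher counts of 470 and lower of 516 came from cells with no endothelial gene, 566 and 621 from thinning to 2000 UMIs, 793 and 1138 from DESeq2, 807 and 590 from the pericyte-like cells, 1017 and 1025 from leaving out droplets with Müller genes (chosen after the data were seen), and 988 to 1437 and 1423 to 1702 from leaving out 1 library, both lowest without the old one.

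With age, the interferon median was 0.32 for cells with no endothelial gene and 0.58 at 50 UMIs or more. The antigen presentation median was 0.56 after thinning, 0.53 for the mean of each cell's CPM and 0.43 with the endothelial profile subtracted, or 0.44 when scaled on 12 endothelial genes outside the rule. The contractile ratio was 1.12 with no endothelial gene, 1.12 for the mean of each cell's CPM and 1.12 without Malat1 and mitochondrial genes. Genes higher numbered 81, 70 and 123 and lower 41, 30 and 62 with no endothelial gene, after thinning and at 50 UMIs. Smooth muscle shares with no endothelial gene were 1.23, 0.912 and 0.409%. Gm37800 (0.635) turned to lower with no endothelial gene, and Zfp945 (1.44) to higher after thinning. These settings keep fewer cells or UMIs. The mean of each cell's CPM gives no counts of genes. The cause of the other shifts was not tested. Of the values of 18 named age genes under the alternatives, 204 stayed within their interval, 19 moved beyond it in the same direction and 2 reversed. Alternatives that left out each gene's highest cells, the deepest old cell, members with few mural or several rod genes, or Malat1 and mitochondrial genes were chosen after the data were seen, as was the scaling on those 12 genes.

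Depth limits the sparse genes most: with 361106 young UMIs, 3 counts amount to 8.31 CPM.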
